A study of Rattus norvegicus with 38 samples.

Results

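The respiratory chain and ATP synthase were examined through the genes of their nuclear-encoded subunits in rejecting, non-rejecting and native rat hearts and in peripheral blood mononuclear cells (PBMC). Members were probesets whose symbol, current or former, starts with Nduf, Sdh, Uqcr, Cox4, Cox5, Cox6, Cox7, Cox8 or Atp5 or is Cyc1 or Cycs, without assembly factors whose symbol holds "af" and a digit. This rule found 102 of 15866 probesets on the heart array, of which 84 measured 79 subunit genes (34 of complex I, 4 of complex II, 8 of complex III, 17 of complex IV and 16 of complex V). A further 9 heart probesets carried several symbols, and 9 encode no subunit. The latter matched through a former symbol, except the pseudogene Cox6c-ps1, whose current symbol matched. On the PBMC array the rule found 109 of 31042 probesets, of which 89 measured 80 subunit genes, 9 carried several symbols and 11 encode no subunit. Each gene was represented by its brightest probeset, and probesets of the last 2 kinds were kept out of all counts of subunit genes.

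The study asked how far animal strain and acute rejection each shape expression in a rat model in which a donor heart is placed in the abdomen of a recipient that keeps its own heart. All donor hearts came from Dark Agouti (DA) rats, an inbred strain that a Brown Norway (BN) recipient rejects. Heart arrays comprised 5 DA allografts from BN recipients, 4 DA isografts from DA recipients, the 5 native BN hearts of the allograft recipients and the 4 native DA hearts of the isograft recipients, all taken on post-transplant day 6. PBMC arrays comprised 5 BN allograft recipients and 9 DA isograft recipients at day 6, and 3 BN and 3 DA rats that had no transplant. Allografts in this model stop beating at about the time of sampling, and heart pieces held both ventricles and the septum. The strain of each heart follows from the study's methods rather than from the sample labels. No array was left out of any fit.

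Oxidative phosphorylation takes place at the inner mitochondrial membrane. Complexes I and II pass electrons from NADH and succinate to ubiquinone, complex III passes them on to cytochrome c, complex IV transfers them to oxygen, and complex V uses the proton gradient that complexes I, III and IV build to make ATP. Heart muscle holds more mitochondria per cell than most tissues, and complex IV has subunits of which heart and skeletal muscle use a form of their own.

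The deposited signals are microarray intensities, 1 array per sample. Each signal was divided by the median signal of its array, so that a level of 10 means 10 array medians, and was then put on the log2 scale. On this scale the subunit genes were among the brightest in hearts, where the mean level of 73 of 79 was at or above the 90th percentile of all probesets and only the testis isoform Cox6b2 lay below the array median. In PBMC 62 of 80 were at or above that percentile and 7 lay below the array median. Groups were compared in limma, and a gene passed when its p, after Benjamini-Hochberg adjustment across every probeset of the array, did not exceed 0.10. It was called when, in addition, it changed 3-fold or more and 50% or more of one group's arrays showed it at or above the array median. Standard errors (SE) come from that fit, whose precision the number of arrays limits. Both tissues are mixtures of cells, in which fewer cells of a type and less RNA per cell cannot be told apart.

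All 5 complexes stood lowest in allografts, lay between in isografts and were highest in native hearts. Over the 78 subunit genes at or above the array median, the mean log2 level relative to native DA hearts was -2.04 ± 0.32 in allografts (SD, n = 5), -0.59 ± 0.44 in isografts (n = 4), -0.30 ± 0.18 in native BN hearts (n = 5) and 0 ± 0.26 in native DA hearts (n = 4). Allografts A3, A4, A5, A6 and A7 were at -1.87, -1.71, -2.47, -2.28 and -1.88. Isografts I9, I11, I12 and I13 were at -0.20, -1.05, -0.89 and -0.24. The highest allograft thus lay below the lowest isograft, whereas isografts I9 and I13 lay within the range of native DA hearts, -0.35 to 0.26. Complex I had the lowest mean in allografts, -2.37 ± 0.32, followed by complex III at -2.08 ± 0.32, complex II at -1.99 ± 0.34, complex V at -1.80 ± 0.31 and complex IV at -1.58 ± 0.33. The same values in isografts were -0.72 ± 0.45, -0.55 ± 0.41, -0.58 ± 0.45, -0.51 ± 0.46 and -0.44 ± 0.40.

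**Figure D1:**
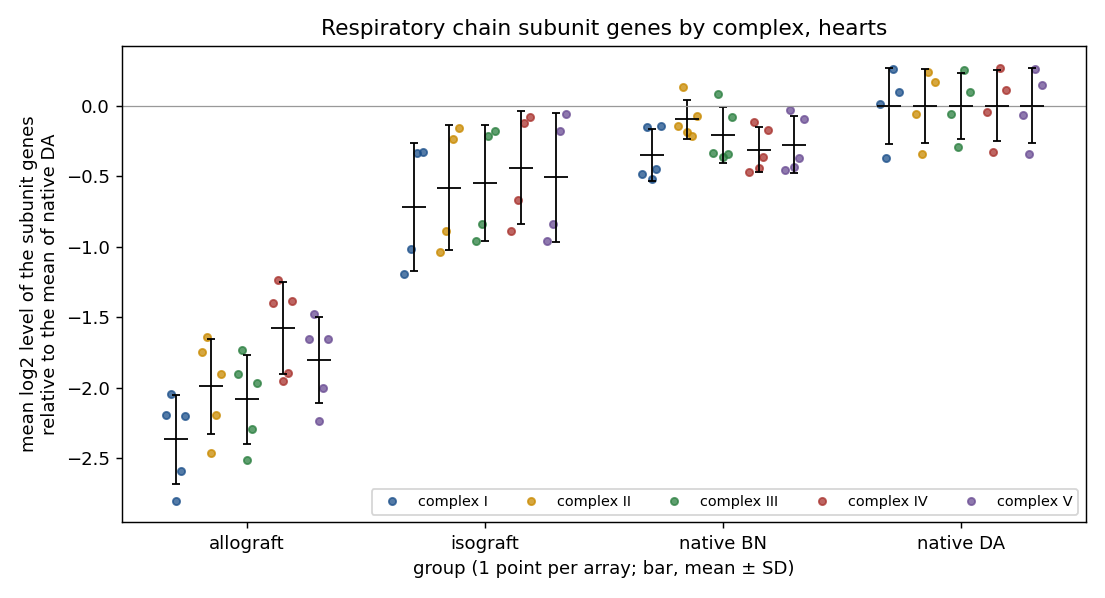
Mean log2 level of the subunit genes of each complex in each heart array, relative to the mean of native DA hearts; points are arrays and bars give the mean ± SD for 5 allografts, 4 isografts, 5 native BN hearts and 4 native DA hearts. Complex IV is drawn from its 16 genes at or above the array median, and allografts lie lowest in every complex, with complex I at -2.37 and complex IV at -1.58.

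In rejecting hearts nearly the whole module fell. Of 79 subunit genes, 75 were lower in allografts than in isografts and none was higher, against 21.2% of all probesets that were lower and 20.3% that were higher. Of the 79, 28 were called (5.05% of all probesets were called lower), and in 72 every allograft lay below every isograft (15.9% of all probesets). The median log2 fold change was -1.47, against 0.02 over all probesets, and it was -1.63 in complex I, -1.31 in complex II, -1.56 in complex III, -0.98 in complex IV and -1.38 in complex V. All members of complexes I, II and III passed, as did 14 of 17 in complex IV and 15 of 16 in complex V. The 4 that did not pass were Cox6b2, Cox8a, Ndufa4l2 and Atp5if1.

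**Figure D2:**
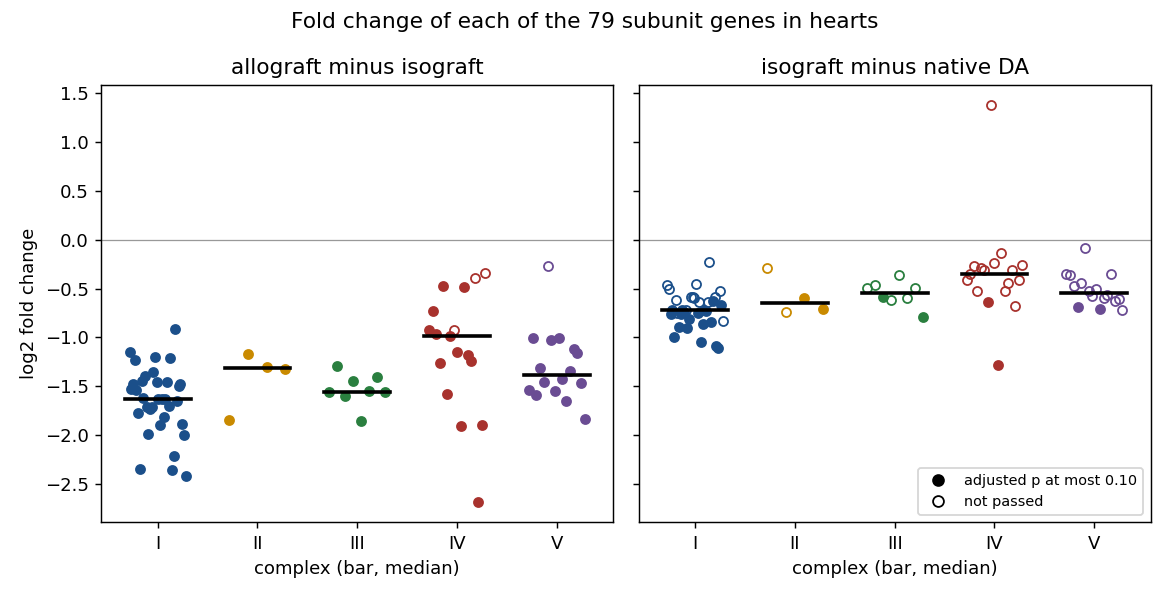
Log2 fold change of each of the 79 subunit genes by complex, for allografts minus isografts and for isografts minus native DA hearts; filled points passed in limma, open points did not, and black bars are medians. For allografts minus isografts, the median is -1.63 in complex I and -0.98 in complex IV, where Cox8b is the lowest point at -2.69.

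Complex I, the NADH dehydrogenase, had all 34 measured subunits lower and 19 of them called. Ndufs1, the largest core subunit and a carrier of iron-sulphur clusters, was at 4.68, 5.45, 4.36, 3.57 and 5.74 array medians in allografts A3 to A7, against 20.2, 20.6, 30.1 and 26.7 in isografts I11, I12, I13 and I9. No allograft came within reach of an isograft, and the isografts themselves overlapped the native DA hearts, which ran from 26.2 to 30.7. Ndufs1 was thus 5.12-fold lower (-2.36 ± 0.16 on the log2 scale, SE), and its adjusted p of 1.96e-08 in limma was the lowest of any subunit gene. Ndufv3, an accessory subunit of the NADH-binding module, was at 6.29, 9.31, 4.69, 4.08 and 7.07 in allografts, against 18.5, 26.5, 44.2 and 49.5 in isografts (5.35-fold lower, SE 0.29 on the log2 scale). Its second probeset was near or below 1 array median in every heart and did not pass. Ndufa5, an accessory subunit of the matrix arm, was 5.07-fold lower (-2.34, SE 0.27). The core subunit Ndufs3 was lower by a log2 of -2.21, and Ndufv1, which binds NADH and the flavin, by -1.89 (SE 0.19, adjusted p = 8.28e-07). At the other end, Ndufs4, an accessory subunit of the matrix arm, had the smallest change of complex I. Its level was 2.26, 2.48, 1.78, 2.38 and 2.20 in allografts, against 3.40, 3.36, 4.63 and 5.56 in isografts (log2 fold change -0.91), and the groups still did not overlap.

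Succinate dehydrogenase, complex II, is also an enzyme of the citric acid cycle, and its 4 genes all fell. Sdha, the flavoprotein that oxidizes succinate, was at 11.5, 14.9, 6.43, 9.86 and 14.5 in allografts, against 31.1, 32.9, 53.8 and 43.0 in isografts. Every allograft lay below every isograft, and Sdha, 3.58-fold lower (-1.84, SE 0.23, adjusted p in limma 9.3e-06), was the only gene of complex II that was called. The membrane anchors Sdhd and Sdhc were at -1.32 and -1.30, and the iron-sulphur subunit Sdhb at -1.17 (SE 0.26).

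All 8 measured genes of complex III passed, and 2 were called. Uqcrc2, a core protein, was at 10.2, 14.8, 7.48, 9.72 and 13.6 in allografts, against 33.1, 29.8, 48.5 and 49.9 in isografts (3.63-fold lower, log2 fold change -1.86, SE 0.22). Uqcr11, a small accessory subunit, was 3.04-fold lower (-1.60, SE 0.19). Cytochrome c1, encoded by Cyc1, hands electrons to cytochrome c and was lower by a log2 of -1.56, close to the Rieske protein Uqcrfs1 at -1.55 and the core protein Uqcrc1 at -1.45. The 8 genes lay within a narrow range, -1.86 to -1.29, and no allograft overlapped an isograft for any of them. Cytochrome c itself was measured by 2 probesets that also carry the symbols Cycsl1 and Cycs-ps9, at -1.69 and -1.37, and may not be measured alone.

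Complex V, the ATP synthase, had 15 of 16 genes lower. Atp5po, the stalk subunit that gives oligomycin sensitivity, was at 21.2, 25.9, 13.6, 13.0 and 21.4 in allografts, against 44.6, 52.5, 83.8 and 94.1 in isografts (3.57-fold lower, -1.84, SE 0.25, adjusted p in limma 1.98e-05). Atp5mk, a small membrane subunit, was 3.13-fold lower, and Atp5f1c, the central stalk, 3.01-fold lower. The catalytic head was less even. Its alpha subunit Atp5f1a was 2.90-fold lower (SE 0.21 on the log2 scale) and its beta subunit Atp5f1b 2.00-fold lower (SE 0.23), the smallest change among the genes of complex V that passed. Atp5if1, which inhibits the enzyme when it runs in reverse, was at 13.2, 13.3, 8.60, 10.9 and 12.2 in allografts, against 10.7, 10.9, 16.2 and 19.3 in isografts. The groups overlapped, with 2 isografts below 4 of the 5 allografts and the other 2 above all of them (-0.27, SE 0.21, limma adjusted p = 0.366), and in no array did its other 2 probesets exceed 1.43 array medians.

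Complex IV, cytochrome c oxidase, was the most uneven of the 5. Its fold changes ran from -2.69 to -0.34 and only 3 of 17 genes were called. Cox8b, the heart and muscle form of subunit 8, was at 11.7, 17.8, 6.48, 4.56 and 23.9 in allografts, against 42.9, 54.2, 94.5 and 107 in isografts. Even the highest allograft was below the lowest isograft, and the 6.44-fold fall (-2.69, SE 0.41, adjusted p in limma 5.7e-05) was the largest of all 79 genes. Cox8a, the form of subunit 8 that most tissues use, was at 46.0, 39.6, 23.5, 31.2 and 36.0 in allografts, against 31.8, 37.9, 52.9 and 64.0 in isografts. Here the groups overlapped and the gene did not pass (-0.39, SE 0.23, adjusted p = 0.218).

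The other muscle forms of complex IV also fell more than their widely expressed counterparts. Cox7a1, the heart and muscle form of subunit 7a, was at 1.35, 1.50, 1.37, 1.31 and 1.99 in allografts, against 4.67, 5.33, 6.64 and 5.77 in isografts (3.74-fold lower, SE 0.18 on the log2 scale, limma adjusted p = 4.82e-07). Cox6a2, the heart and muscle form of subunit 6a, was at 36.5, 58.7, 16.0, 21.5 and 43.1, against 68.4, 72.2, 118 and 138 (2.99-fold lower, SE 0.34). Its counterpart Cox6a1 was at 29.4, 25.4, 19.1, 21.1 and 26.7 in allografts, against 23.6, 25.9, 45.7 and 44.4 in isografts. These overlapped, and Cox6a1 passed by a small margin (-0.47, SE 0.21, adjusted p = 0.0981), and did not pass in 8 of 15 alternative settings. Cox7a2, the widely expressed form of 7a, shares its probeset with Cox7a2l2 and was 2.42-fold lower.

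The difference between the forms was tested as the log2 ratio of the 2 probesets within each array. The Cox8b to Cox8a ratio was -1.67 ± 0.83 in allografts (SD, n = 5) and 0.63 ± 0.19 in isografts (n = 4), a 4.93-fold lower ratio in allografts with no overlap. The difference of -2.30 had a p of 0.0159 in an exact permutation test, two-sided, and no smaller p is possible with 5 and 4 hearts. For Cox6a2 to Cox6a1 the difference was -1.11, and for Cox7a1 to the Cox7a2 probeset -0.63, both at the same exact p and without overlap. Over the 20 ratio comparisons made, these 3 had an adjusted exact p of 0.0529. Over 11 other settings the 3 differences stayed between -2.57 and -2.02, between -1.31 and -0.94, and between -0.80 and -0.47. Cox4i1, the common form of subunit 4, and Cox4i2, its oxygen-sensitive form, fell by log2 values of -0.92 and -0.72, and their ratio differed by 0.20 (exact permutation p = 0.556). Ndufa4, now counted as a complex IV subunit, was 3.72-fold lower, while its paralog Ndufa4l2 was at 1.61, 1.76, 2.47, 1.62 and 0.768 in allografts, against 2.30, 1.67, 2.02 and 1.89 in isografts. Their ratio was higher in allografts by a log2 of 1.55, with overlap (exact permutation p = 0.0317, adjusted 0.0635).

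**Figure D3:**
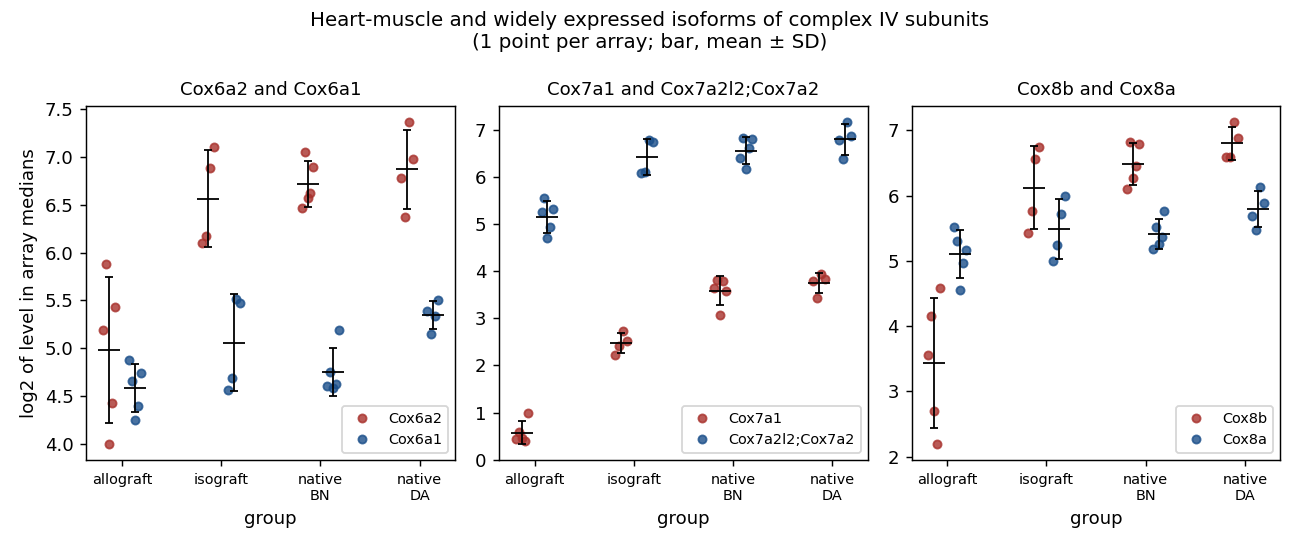
Log2 level in array medians of 3 pairs of complex IV isoforms in each heart array, muscle form in red and widely expressed form in blue; bars give the mean ± SD for 5 allografts, 4 isografts, 5 native BN hearts and 4 native DA hearts. Levels of 2 probesets are not comparable with each other, but their ratio can be compared between groups. The Cox8b to Cox8a ratio overlaps between the 2 native groups and is 4.93-fold lower in allografts than in isografts. Cox7a1 falls in isografts as well.

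Promoter windows are shown for the isoforms because Cox8b and Cox7a1 fell most in complex IV while Cox8a did not pass. RefSeq windows of GRCr8 with 250 bases before and 50 after the start of the gene were found for 72 of 80 subunit genes. The median number of CG pairs in the window was 20 in subunit genes and 7 over all 33469 windows. Only 5 of 72 (6.94%) had at most 6 CG pairs, against 48.6% of all windows, and these were Cox8b and Cox6a2 with 5 each and Cox7a1, Cox6b1 and Cox7b with 6 each. Cox8a had 16, and Ndufv3 and Ndufs1, with the largest falls of complex I, had 20 each. The windows of Cox8b (chr1:205408224-205408523, minus strand), Cox7a1 (chr1:94568966-94569265, plus strand) and Cox8a (chr1:213833574-213833873, minus strand) follow with each CG in capitals. A match or a low count describes the letters of the window. It was not related by a test to the size of a gene's fall or to any factor.
Cox8b: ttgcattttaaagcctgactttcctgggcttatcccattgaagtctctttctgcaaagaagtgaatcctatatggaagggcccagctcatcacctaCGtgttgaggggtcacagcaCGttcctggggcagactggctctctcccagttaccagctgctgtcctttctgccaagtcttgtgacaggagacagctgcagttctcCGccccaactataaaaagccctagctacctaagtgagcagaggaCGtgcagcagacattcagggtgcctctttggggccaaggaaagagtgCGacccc
Cox7a1: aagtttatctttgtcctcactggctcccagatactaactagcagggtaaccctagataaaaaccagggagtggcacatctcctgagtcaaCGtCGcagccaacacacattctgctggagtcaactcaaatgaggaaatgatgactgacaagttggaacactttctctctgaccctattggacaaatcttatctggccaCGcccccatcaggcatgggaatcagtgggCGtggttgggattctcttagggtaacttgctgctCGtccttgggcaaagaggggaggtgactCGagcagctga
Cox8a: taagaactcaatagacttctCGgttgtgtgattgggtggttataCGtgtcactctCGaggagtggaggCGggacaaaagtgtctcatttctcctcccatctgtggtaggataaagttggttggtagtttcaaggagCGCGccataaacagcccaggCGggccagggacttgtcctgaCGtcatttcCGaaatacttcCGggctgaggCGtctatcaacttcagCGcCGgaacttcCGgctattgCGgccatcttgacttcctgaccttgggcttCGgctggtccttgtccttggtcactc

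Motifs of factors known for mitochondrial genes were searched as exact letters on both strands. The NRF1 motif, which is GCGCA, any base and GCGC, was in 13 of 72 subunit windows (18.1%), against 4.25% of all windows. It was in 5 of 15 windows of complex V and in none of 15 of complex IV. The YY1 motif AAGATGGCG was in 10 (13.9%), against 1.73%, and the ETS motif CCGGAAGT in 8 (11.1%), against 3.81%. The ERR motif TNAAGGTCA was in 3 (4.17%), against 1.2%. The letters of the NRF1, YY1 and ETS motifs contain CG, and subunit windows hold a median of 20 CG pairs, against 7 over all windows. The shares were not matched for this, and the part of CG content in them was not tested. The window of Sdha (chr1:30764303-30764602, plus strand) holds 3 NRF1 matches, in capitals.
Sdha: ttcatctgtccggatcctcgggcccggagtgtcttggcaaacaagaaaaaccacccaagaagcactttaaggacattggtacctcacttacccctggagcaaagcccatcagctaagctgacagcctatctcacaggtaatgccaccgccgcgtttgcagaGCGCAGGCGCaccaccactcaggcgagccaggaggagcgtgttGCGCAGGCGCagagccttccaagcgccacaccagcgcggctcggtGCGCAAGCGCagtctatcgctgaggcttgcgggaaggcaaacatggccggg

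Markers of heart muscle moved in the direction of the subunit genes and markers of leukocytes in the opposite one. All 11 measured cardiomyocyte markers were lower in allografts than in isografts (median log2 fold change -2.59), and their summed level was 143 to 365 array medians in allografts and 699 to 1204 in isografts. All 11 leukocyte markers were higher, with sums of 217 to 380 in allografts and 52.2 to 65.2 in isografts, and no marker of either list was at 0. Allograft A5, with the lowest cardiomyocyte sum, had the lowest level of 61 of 79 subunit genes among the allografts, and A4, with the highest sum, had the highest level of 42. A5 also had the lowest leukocyte sum. Its array median was the highest of the allografts, 50.8, and that of A4 the lowest, 41.7. Marker sums and subunit levels were both divided by this median, so their shared order among allografts is not independent of it. The 3′ to 5′ ratio of the GAPDH control probesets was 1.21 to 1.90 in allografts and 1.24 to 1.63 in isografts, and that of beta-actin was 1.26 to 3.63 in allografts and 1.30 to 2.72 in isografts. The part of cell composition and RNA quality in these changes was not tested. Of 15 alternative settings, Cox5a did not pass in 3 and Cox7a2l not in 2, which left out isograft I9 or I13. The probeset that stands for Cox5a was dim, at 1.57 to 4.29 array medians in allografts. A brighter one, shared with LOC100361008, was at 28.5 to 51.1 in allografts and 55.1 to 96.9 in isografts.

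Transplantation without rejection, measured as isografts over native DA hearts, lowered fewer subunit genes. Of 79 genes, 27 were lower in isografts and none was higher, against 6.59% of all probesets that were lower, and none reached a 3-fold change. Lower were 19 of 34 genes of complex I, 2 of 4 of complex II, 2 of 8 of complex III, 2 of 17 of complex IV and 2 of 16 of complex V, and the difference between complexes was not tested. The median log2 fold change was -0.72 in complex I, -0.65 in complex II, -0.54 in complexes III and V and -0.35 in complex IV, against -0.08 over all probesets. In 14 genes every isograft lay below every native DA heart, against 8.06% of all probesets, and 9 of the 14 were of complex I.

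Cox7a1 fell most and most firmly. It was at 4.67, 5.33, 6.64 and 5.77 in isografts I11, I12, I13 and I9, against 13.8, 10.8, 15.5 and 14.2 in the native hearts of the same 4 recipients. Each isograft was well below its recipient's own heart (2.42-fold lower, -1.28, SE 0.19, adjusted p in limma 0.0015), and Cox7a1 passed in all 15 alternative settings. Its ratio to the Cox7a2 probeset was also lower in isografts, by a log2 of -0.91 and the groups were apart (exact permutation p of 0.0286, adjusted 0.0635, where 4 and 4 hearts permit nothing smaller). Cox8b showed -0.68 (SE 0.43, adjusted p = 0.351) and Cox6a2 -0.31 (SE 0.35, adjusted p = 0.635), neither of which passed. The Cox8b ratio differed by -0.37 without overlap (the same exact p) and the Cox6a2 ratio by -0.02 (exact permutation p = 0.943).

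In complex I the changes ran from -1.11 to -0.23 on the log2 scale, and the core subunits stood at both ends. Ndufs8, a carrier of iron-sulphur clusters, was at 11.9, 13.0, 20.7 and 20.5 in isografts, against 33.1, 29.8, 42.4 and 33.8 in native DA hearts (2.16-fold lower, SE 0.21 on the log2 scale, limma adjusted p = 0.00513). Ndufs7, which holds the last cluster before ubiquinone, was at 14.7, 23.4, 33.5 and 30.1, against 55.3, 37.1, 59.1 and 58.8 (2.13-fold lower, adjusted p = 0.0177). For both genes all isografts lay below all native DA hearts. Ndufb7, an accessory membrane subunit, was 2.06-fold lower. Ndufs1, with the firmest fall in allografts, differed by only -0.23 in isografts (SE 0.17, adjusted p = 0.436), and Sdha by -0.29 (SE 0.25, adjusted p = 0.502).

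Among the smaller sets, the complex III subunits Uqcrq and Uqcr11 were lower by log2 values of -0.79 and -0.59, the complex II anchors Sdhd and Sdhc by -0.70 and -0.60, the ATP synthase subunits Atp5mg and Atp5f1d by -0.71 and -0.68, and the complex IV subunit Cox6b1 by -0.64. Cox6b2 had the one positive value, 1.38, at levels under 0.3 array medians in every heart, and did not pass. Set against the recipient's own heart, the isograft was lower in all 4 recipients for 65 of 79 genes (19.6% of all probesets), with 33 of 34 in complex I and 7 of 17 in complex IV. The median difference was -1.03 in recipient I11, -0.56 in I12, -0.50 in I13 and -0.32 in I9. Beside these values, 1 of 11 cardiomyocyte markers passed as lower, and their summed level was 699, 766, 1136 and 1204 in isografts I11, I12, I13 and I9, against 1088, 957, 1460 and 1267 in the native hearts of the same recipients. It was lower in the isograft in all 4, and isografts I11 and I12 were lowest, as they were for the subunit genes. Marker sums and subunit levels were both divided by the array median, which was 47.0, 45.9, 39.9 and 38.8 in isografts I11, I12, I13 and I9. Their shared order among isografts is thus not independent of it. In addition, 6 of 8 fibroblast and matrix genes were higher (sums of 254 to 313 in isografts and 80.9 to 103 in native DA hearts) and 5 of 11 leukocyte markers were higher. The part of these in the fall was not tested. The count of 27 moved with single hearts, being 5 without isograft I11, 4 without I12, and 10, 5 and 6 without native DA hearts I11, I13 and I9, and only Cox7a1 passed with the recipient as a fixed term.

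Allografts were also set against native DA hearts, a comparison that shares its arrays with both above. Lower in allografts were 77 of 79 genes (27.4% of all probesets), 64 were called (6.23%), and in 73 the groups did not overlap (19.6%). The largest falls were those of Cox8b (10.3-fold, log2 fold change -3.37, SE 0.41), Ndufv3 (9.48-fold, SE 0.29), Cox7a1 (9.07-fold, SE 0.18), Ndufa5 (8.52-fold) and Ndufs3 (8.28-fold). Cox7a1 was at 1.31 to 1.99 in allografts, against 10.8 to 15.5 in native DA hearts. By complex the median was -2.40 in complex I, -1.97 in II, -2.10 in III, -1.38 in IV and -1.90 in V, against -0.12 over all probesets. The inhibitor Atp5if1 (-0.35, adjusted p = 0.203) and Cox6b2 (0.46, adjusted p = 0.567) did not pass. Set against the native BN heart of the same recipient, which differs in strain, 72 of 79 genes were lower in all 5 allografts (24.2% of all probesets).

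Native BN hearts and native DA hearts differed little. The strain comparison in hearts coincides with the type of graft that the animal had received, and the 2 cannot be told apart. None of 79 genes passed in limma (2.94% of all probesets did), 12 had an unadjusted p under 0.05 and the lowest adjusted p was 0.198. The sign was negative for 75 of 79, against 52.7% of all probesets, with a median of -0.30, against -0.02. The GAPDH 3′ to 5′ ratio was 1.07 to 1.27 in native BN hearts and 1.29 to 1.63 in native DA hearts, without overlap. That of beta-actin was 1.653 to 2.051 in native BN hearts and 1.674 to 2.415 in native DA hearts, with overlap. The part of RNA quality in the shift was not tested. Ndufa5 came closest, at 24.1 to 31.3 in native BN hearts and 27.3 to 75.8 in native DA hearts (-0.77, SE 0.27), and the ranges overlapped. Atp5po, at 62.6 to 76.1 in native BN hearts and 76.9 to 132 in native DA hearts (-0.67, SE 0.25, adjusted p = 0.232), was 1 of 3 genes without overlap, all lower in BN (3.41% of all probesets), beside Ndufb9 and Ndufa4l2.

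In PBMC the levels of the subunit genes in array medians differed between strains and between transplanted and untransplanted rats. Over the 73 genes at or above the array median, the mean log2 level relative to untransplanted DA rats was -0.91 ± 0.15 in BN allograft recipients (SD, n = 5), -0.80 ± 0.18 in DA isograft recipients (n = 9), -0.36 ± 0.05 in untransplanted BN rats (n = 3) and 0 ± 0.05 in untransplanted DA rats (n = 3). On this scale recipients of either graft lay below all untransplanted rats. By the study's account, however, the 2 were processed in separate batches, and batch and transplantation cannot be told apart. Median signals per array, by which levels were divided, were 26.6 to 36.8 in recipients and 20.2 to 23.7 in untransplanted rats. The division thus moves recipients down relative to untransplanted rats, and the contrast was not tested on another scale. The 3′ to 5′ ratio of the beta-actin control probesets was 1.31 to 2.75 in recipients and 1.08 to 1.18 in untransplanted rats, without overlap. That of GAPDH was 0.986 to 1.98 in recipients and 1.01 to 1.35 in untransplanted rats, with overlap. Summed red cell markers were at 147 to 532 array medians in recipients and 13.5 to 144 in untransplanted rats. Neutrophil sums were 10.1 to 207 against 6.81 to 9.65, and B cell sums 36.5 to 104 against 126 to 223. These sums did not overlap, whereas those of T cell, monocyte and platelet markers did. Within recipients the subunit levels of the 2 groups overlapped. The muscle forms Cox8b, Cox6a2 and Cox7a1 were below the array median in every PBMC sample.

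**Figure D4:**
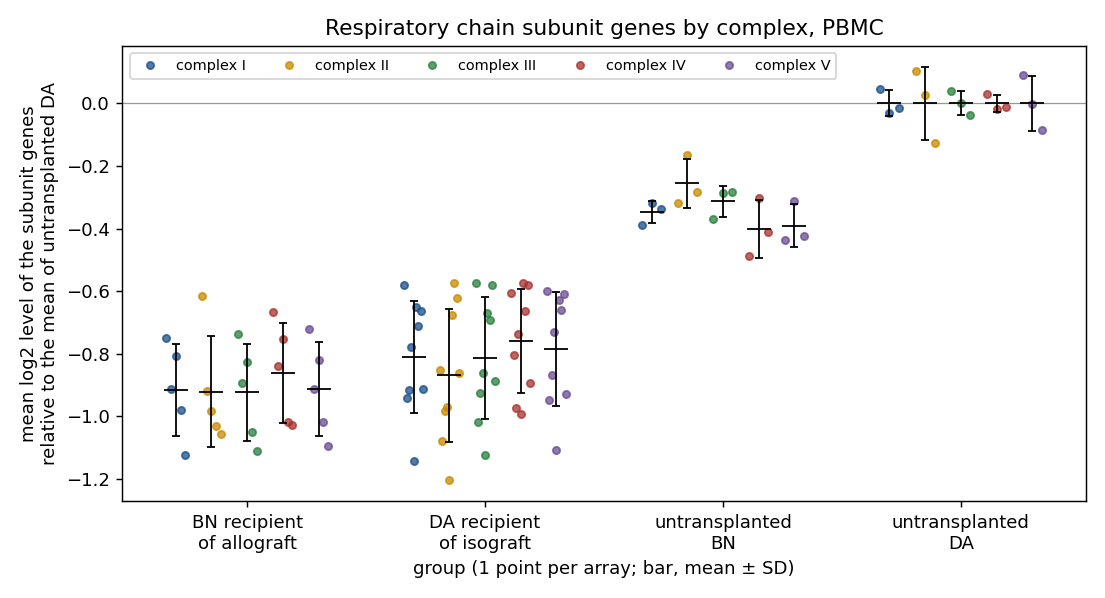
Mean log2 level of the subunit genes of each complex in each PBMC array, relative to the mean of untransplanted DA rats; points are arrays and bars give the mean ± SD for recipients (5 BN with an allograft, 9 DA with an isograft) and for rats without a transplant (3 BN, 3 DA). Complex IV is drawn from its 11 genes at or above the array median; untransplanted BN rats lie below untransplanted DA rats in every complex, and the recipient groups overlap.

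The strain effect in untransplanted rats was small, and genes of complexes I, III, IV and V passed but none of complex II. Of 80 genes, 8 were lower in BN and none was higher, against 4.86% of all probesets that were lower, but in 64 of 80 all 3 BN rats lay below all 3 DA rats, against 19.1% of all probesets. The median was -0.36, against -0.08. Ndufa4 was at 43.7, 46.7 and 52.1 in BN rats, against 86.6, 77.1 and 72.8 in DA rats (1.66-fold lower, -0.73, SE 0.18, adjusted p in limma 0.0221), and it alone of the 8 passed in all 11 alternative settings tried on it. Cox7b, a small complex IV subunit, was at 63.1, 70.1 and 65.6 in BN rats, against 107, 102 and 95.9 in DA rats (-0.62, SE 0.18). The other 6 were the complex I subunits Ndufa12, Ndufb3 and Ndufc1, the complex III hinge protein Uqcrh, Cox7a2l, which takes part in supercomplexes, and Atp5po, between -0.57 and -0.50. Among probesets with several symbols, that of Ndufa10 and Ndufa10l1 was at 9.28, 10.1 and 10.3 in BN rats, against 21.4, 21.8 and 26.1 in DA rats (2.33-fold lower, SE 0.21, adjusted p = 0.00148).

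Other cell markers differed between the strains too. Of 7 T cell markers 4 were lower in BN (sums of 381 to 428 in BN and 676 to 718 in DA rats) and none higher, 3 of 5 platelet markers were lower and 1 higher, and 4 of 6 monocyte markers were higher. Their part in the strain effect was not tested. The count of 8 was 1 to 4 when any of the 6 rats was left out, 4 when only the 2 groups were fitted and 3 after quantile normalization. Dividing by the array median moves all PBMC levels of BN relative to DA down, since the median over all probesets was 0.08 on the deposited scale and -0.08 here.

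Among recipients, BN rats with an allograft were compared with DA rats with an isograft, which holds strain and rejection together. Lower in allograft recipients were 10 of 80 genes (12% of all probesets) and higher were 2 (6.66%), none by 3-fold and none without overlap. The share of lower genes was near that of all probesets. Ndufa1, a small membrane subunit of complex I, had the lowest adjusted p. It was at 84.2, 63.5, 64.8, 54.1 and 58.0 in allograft recipients, and at 76.8 to 103 with a median of 95.7 in isograft recipients (1.42-fold lower, -0.50, SE 0.11, adjusted p in limma 0.00602). Only allograft recipient QR3 reached into the range of the isograft recipients.

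Ndufs4 was higher in allograft recipients, at 10.3, 6.01, 7.23, 7.91 and 5.41, against 3.43 to 6.11 with a median of 4.93 in isograft recipients (0.54, SE 0.16, adjusted p = 0.0303). The 2 lowest allograft recipients lay within the isograft range. Ndufa1 and Ndufs4 passed in all 19 alternative settings. Sdhb was higher by 0.26 (adjusted p = 0.0975) and passed in 7 of 19. The others lower were Atp5f1e (-0.42), Ndufv1 (-0.39), Ndufa4 (-0.38), Cyc1 (-0.34), Ndufs6 (-0.33), Ndufc1 (-0.30), Cox8a (-0.29), Ndufa11 (-0.28) and Cox6a1 (-0.27). Beside these, 6 of 7 T cell markers were lower (sums of 170 to 291 in allograft recipients and 273 to 467 in isograft recipients), as were 5 of 6 red cell and 4 of 5 platelet markers. Higher were the fifth platelet marker, all 3 B cell markers, 3 of 6 monocyte markers (1 was lower) and 2 of 5 neutrophil markers (1 was lower). Their part was not tested. The count of 12 was 6, 5 and 2 without allograft recipients QR5, QR6 and QR7, 7, 6 and 7 without isograft recipients QR11, QR18 and QR21, and 6 when only the 2 groups were fitted.

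Rejection beyond strain was taken as the difference between the recipient and the untransplanted comparison on the log2 scale. This difference cancels a batch effect only if that effect is equal in both strains. The study cautions that such a selection might be unreliable if strain and rejection do not add. Neither condition was tested. In limma 0 of 80 genes passed (0.348% of all probesets), and 7 had an unadjusted p under 0.05. The difference was positive for 73 of 80 genes, where 48.3% of all probesets were negative, with a median of 0.22, against 0.02 over all probesets. Ndufs4 was at 0.70 (SE 0.28, adjusted p = 0.506) and Ndufc2, a membrane subunit of complex I, at 0.53 (SE 0.19, adjusted p = 0.414, the lowest).

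Genes that build or serve the complexes gave a similar picture in hearts with more exceptions. Of 29 measured assembly factors, 18 were lower and 2 higher in allografts than in isografts, beside the 21.2% lower and 20.3% higher of all probesets, which hold for the next counts too. The complex III factors Uqcc1 and Uqcc2 were at -1.96 and -1.52, Cox15, which makes the heme of complex IV, at -1.48, and the complex I factor Acad9 at -1.44, whereas Coa7 was at 0.89 and Pet100 at 0.46. Of 10 carriers and channels, 6 were lower and 2 higher. The carnitine carrier Slc25a20 was at -1.95 and the muscle adenine nucleotide carrier Slc25a4 at -1.59, while the nucleotide carrier Slc25a5 of proliferating cells was at 0.52 and the uncoupling protein Ucp2 at 0.85. Of 8 regulators of mitochondrial biogenesis, 4 were lower and 1 higher. The coactivator Ppargc1a was at -2.36 (limma adjusted p = 0.0106), the nuclear receptor Esrra at -0.91 and the mitochondrial RNA polymerase Polrmt at -0.61, while the polymerase Polg was at 0.30. Tfam, which packs mitochondrial DNA, was at -0.10 and did not pass (adjusted p = 0.761).

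The remaining probesets of the rule gave no separate picture in hearts. They are counted here by the sign of the log2 fold change alone, whose median over all probesets was 0.02. By sign, all 9 with several symbols were lower in allografts than in isografts, led by that of Ndufa10 and Ndufa10l1 at -2.21. Of the 9 that encode no subunit, 7 were lower and 2 higher by sign. Among these 9 were Dmac2l at -2.10 and -1.87 and sorbitol dehydrogenase Sord at -1.67 and -1.28, whose former symbols matched, while Emc8 was at 0.67 and serine dehydratase Sds at 1.64. Sds lay below the array median in every heart, at 0.137 to 0.852 array medians in allografts and 0.0588 to 0.172 in isografts, with overlap.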

How the data were processed

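The authors deposited microarray signal intensities quantified with the MAS5 algorithm and scaled per array, 1 value per probeset, from RAE230A arrays (18 heart samples) and RAE230 2.0 arrays (20 PBMC samples). The version of the software is not given in the sources used here. Median signals per array were 38.3 to 50.8 in hearts and 20.2 to 36.8 in PBMC.

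From these, log2(signal / array median) was computed, and 57 control probesets were left out of each array. Groups were taken from the sample labels. All 4 groups of a tissue were fitted together with lmFit and eBayes in limma 3.58.1 (R 4.3.3), with Benjamini-Hochberg adjustment over all probesets, and ratios of isoforms were tested by exact permutation (scipy 1.17.1). The fit was tested on simulated data. The labels do not say whether all samples are separate animals in PBMC, so p-values measure the spread between these samples. By the study's methods the transplants numbered 9 isogeneic and 5 allogeneic, as many as the PBMC samples of each kind of recipient. The members, gene lists and comparisons were chosen with earlier results of these data known, and the ratios of isoforms were added after seeing the data. Genes were named if they were among the 3 largest changes of a complex that passed, if they were core subunits or isoforms chosen by function, or if they were singled out after their values were seen. Symbols came from the platform annotation updated to GRCr8, where 12783 heart probesets had 1 symbol, 312 several and 2771 none.

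The native heart and the donor heart grafted into the same recipient carry the same number in their titles and were taken from 1 recipient, which pairs them. The deviations of the 2 hearts from their group means correlated between -0.045 and 0.118, and the correlation estimated for a random recipient block was 0.0575. Alternatives were quantile normalization, the deposited scale, 0.25 array medians added before log2, a filter on dim probesets, only the compared groups, all probesets of a gene, the recipient as a block and leaving out each sample in turn.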

Additional observations from a re-analysis of the deposited data

Results flagged for a closer look

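In 230 combinations of gene and group with 4 to 10 samples, 6 (2.61%) held 1 sample that stood apart from the others, where chance gives about 1 in 20. Native DA heart I12 held 3 of them, with Atp5if1 at 11.8 array medians (the other 3 at 15.3 to 15.9), Ndufs3 at 38.4 (others 51.4 to 54.0) and Ndufs7 at 37.1 (others 55.3 to 59.1). Native BN heart A7 had Cox6a1 at 36.5 (others 24.1 to 26.9). Allograft A4 had Cox6b2, below the array median in all hearts, at 0.0224 (others 0.0827 to 0.123). Isograft recipient QR14 had Cox5a at 1.87 in PBMC (others 3.05 to 4.87). The brighter Cox5a probeset, shared with LOC100361008, was at 63.4 in QR14 (others 65.0 to 84.5).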

How the results depend on the processing

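The count of genes that passed stayed within 1.5 times its value for allografts over isografts (72 to 76 when 1 heart was left out) and for allografts over native DA hearts (76 to 77). For isografts over native DA hearts, 27 became 44 on the deposited scale, 5 with only the 2 groups, 1 with the recipient as a fixed replicate block and 4 to 40 when 1 heart was left out, and with a random block it was 35. The random block kept the count for allografts over isografts at 75. For native hearts the count was 0 to 1 (1 without native DA heart I12). In PBMC, 8 genes between untransplanted strains became 3 after quantile normalization, 4 with only the 2 groups and 1 to 4 when 1 rat was left out, and 12 genes between recipients became 6 with only the 2 groups and 2 to 17 when 1 rat was left out. Quantile normalization turned the complex II median of native hearts to 0.0472, and between recipients it turned Atp5mc3 to 0.21, Cox7a2l to 0.15 and the medians of complexes I to V to 0.0455, 0.0886, 0.0800, 0.127 and 0.0481. On the deposited scale those of complexes I to IV were 0.0262, 0.0583, 0.0409 and 0.0432. The causes were not tested. No replicate block could be fitted in PBMC, since no number pairs its samples across groups.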
